A study of Mus musculus with 3 samples.

Results

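Hedgehog pathway genes were examined for TBX5 binding in the fetal mouse heart. The 9 member genes were Gas1, Cdon and Boc, which encode co-receptors, the receptor gene Ptch1, the ligand-binding inhibitor gene Hhip, the signal transducer gene Smo, and the transcription factor genes Gli1, Gli2 and Gli3. They were named by their place in the pathway, with earlier results of these data known. Every summit (the position of highest signal of a peak) within the RefSeq gene body on mm10, or within 50 kb of it, was taken for the gene. This gave 11 summits of 12436 in the deposited list. TBX5 was precipitated from hearts of CD-1 embryos, an outbred stock with no genotype or treatment named in the labels, at E14.5 in 2 biological replicates, and 1 input sample of the same stage gave the background. Peaks were called once on the pooled samples, so that no value per replicate, no spread between hearts and no test between samples exists for any value below. Whole hearts were used, and weak binding in many cells cannot be told apart from strong binding in few.

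Hedgehog ligands bind PTCH1 with the help of the co-receptors GAS1, CDON and BOC, which relieves the block that PTCH1 holds on SMO at the primary cilium. SMO then shifts the GLI proteins towards their activating forms. Ptch1, Hhip and Gli1 are themselves transcribed in response, so that they serve as readouts of the signal, and PTCH1 and HHIP limit it. In the mouse embryo, progenitors of the second heart field at the back of the heart receive this signal, and atrioventricular septation requires it. TBX5, a T-box transcription factor of heart and forelimb, acts in the same progenitors, a population earlier than the hearts studied here.

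The tissue was checked against heart muscle genes before these values were read. All 10 of the heart muscle genes listed (Tnnt2, Myh6, Myh7, Actc1, Ryr2, Ttn, Nppa, Gata4, Nkx2-5 and Tbx5) had a summit under the same 50 kb rule, against 2 of 5 liver genes (Apoa1 and Ttr, not Alb, Afp or Serpina1a), 3 of 5 neuronal genes (Syt1, Stmn2 and Tubb3, not Snap25 or Neurod1) and 49.8% of all protein-coding genes. The neighbours Myh6 and Myh7 shared their strongest summit, so that the 10 heart muscle genes are not 10 separate loci. The fold enrichment of the strongest summit (the authors' value, defined below) ran from 5.96 at Ttn to 36.2 at Ryr2 among the heart muscle genes. It was 8.10 at Apoa1 and 5.57 at Ttr, and 24.4 at Syt1, 19.1 at Stmn2 and 4.49 at Tubb3. The folds of heart muscle and neuronal genes thus overlapped, with Syt1 above 9 of the 10 heart muscle genes, and a summit near a gene is not a measure of its expression.

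The promoter of Gas1 is shown because it was the sole member promoter in the RefSeq table with a summit inside it. The promoter of Ddit3, a stress-response transcription factor gene, is shown because it held a summit that the window of Gli1 took in. Both are the 250 bases upstream of the RefSeq start (GRCm38.p6, the assembly that mm10 names), 5′ to 3′ along the gene, and the 21 capitals are centred on the summit. Gas1 lies at chr13:60177536-60177785 on the minus strand and Ddit3 at chr10:127290543-127290792 on the plus strand.
Gas1: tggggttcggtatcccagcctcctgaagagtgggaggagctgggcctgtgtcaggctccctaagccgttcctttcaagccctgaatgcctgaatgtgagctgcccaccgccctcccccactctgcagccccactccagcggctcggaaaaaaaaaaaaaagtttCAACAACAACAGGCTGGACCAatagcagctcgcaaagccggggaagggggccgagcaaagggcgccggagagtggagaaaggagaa
Ddit3: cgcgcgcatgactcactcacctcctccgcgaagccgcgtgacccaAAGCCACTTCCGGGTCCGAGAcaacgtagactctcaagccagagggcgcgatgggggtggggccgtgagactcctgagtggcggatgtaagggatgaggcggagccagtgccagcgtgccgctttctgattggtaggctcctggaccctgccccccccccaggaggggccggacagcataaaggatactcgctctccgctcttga

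Of the 9 members 5 (Gas1, Cdon, Ptch1, Gli1 and Gli3) had a summit under this rule and 4 (Boc, Hhip, Smo and Gli2) had none. Among all 21631 protein-coding genes the share was 49.8%, close to that of the members. The density of summits was close as well, with 6.31 per Mb over the 1.74 Mb of member windows, against 6.32 per Mb over the windows of all protein-coding genes. Longer genes have larger windows, and the members had a median body of 73.8 kb, against 17.3 kb for all genes. Both members with a body under 20 kb, Gas1 and Gli1, had a summit, as did 42.0% of all genes of that length. Of the 5 members of 20 to 100 kb 2 had one, Cdon and Ptch1, against 55.1% of all such genes. Of the pair above 100 kb Gli3 had summits and Gli2 had none, where 70.7% of all such genes had at least 1. These counts are a description, and no difference from the background was tested.

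**Figure D1:**
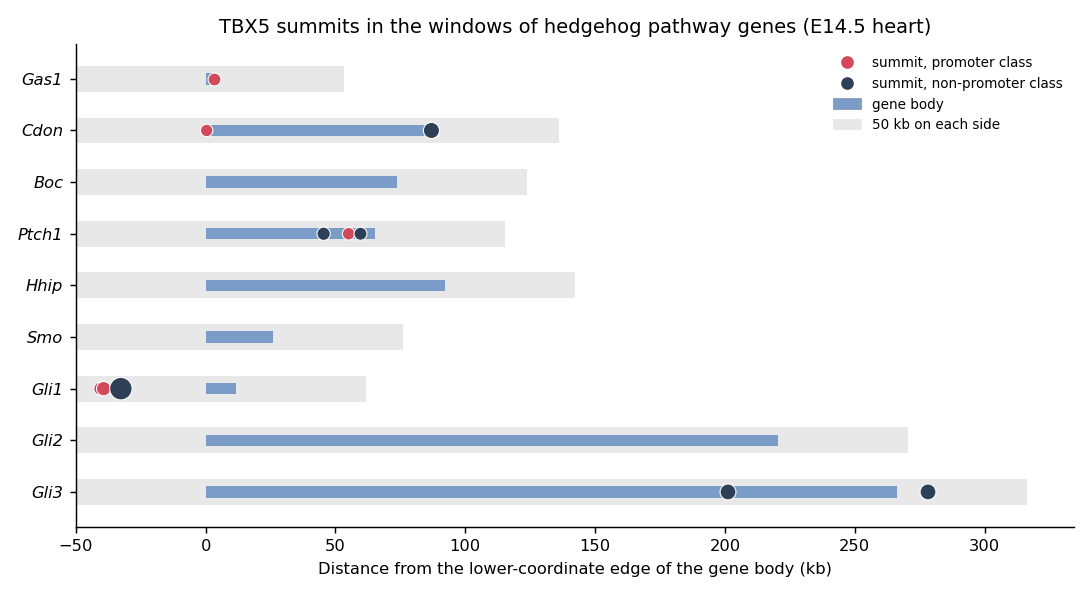
TBX5 summits along each of the 9 member genes, as distance in kb from the lower-coordinate edge of the gene body, with the body in blue, the 50 kb on each side in grey, and circles that grow with fold enrichment (red for promoter class, dark for the rest). Summits lie within the bodies of Cdon, Ptch1 and Gli3, those of Gli1 lie from 32.7 to 40.5 kb below its body, and Boc, Hhip, Smo and Gli2 have none.

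Each summit carries the authors' fold enrichment, the ratio of fragments in the pooled ChIP samples to those of the local background, each with 1 added. With 26 fragments over a background of 5.65, for example, the Gas1 fold is 4.06. Fragments and backgrounds were solved from the deposited values and are given below without the added 1. The 95% interval given beside it is the exact Poisson interval of the fragments at the summit. It covers their counting error alone, with the background held fixed, so that error in the background is left out. The 11 summits had a median fold of 4.54 (range 3.70 to 15.7), against 5.67 over all peaks (range 2.11 to 85.6), and 7 of the 11 were below that median. By authors' class, the 5 promoter summits (within 2000 bp of a transcription start) had a median of 4.06, against 4.40 for all promoter peaks. The 6 non-promoter summits had a median of 7.05, against 6.23 for all such peaks. The members had both a lower median and a higher share of promoter peaks, 5 of 11 against 24.6% of all peaks. Whether the 2 are linked was not tested. The median number of fragments at the summit was 26 at member summits and 22 over all peaks, and the median background was 4.94 and 2.83 fragments. A −log10 q of at least 10 was reached by 5 of the 11 summits, and by 41.5% of all peaks. They were the stronger Cdon summit, the Ddit3 promoter summit and the strongest summit in the Gli1 window, and both Gli3 summits. The Gas1 summit (6.75) and every Ptch1 summit (4.10 to 7.19) fell below it.

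**Figure D2:**
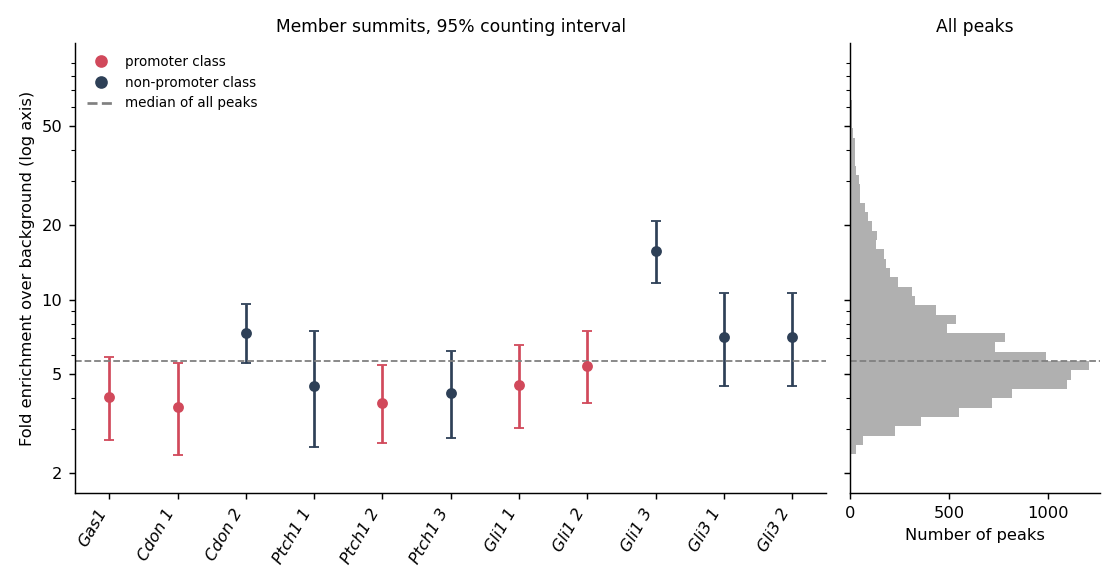
Fold enrichment (log axis) of the 11 member summits, numbered along the chromosome within each gene, with 95% counting intervals, and at the right the distribution over all 12436 peaks. The summit labelled Gli1 3, at 15.7-fold, stands above the rest, and the intervals of 8 of the 11 span the median of all peaks, drawn as a dashed line.

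Among the co-receptor genes Gas1 had a summit at its promoter, Cdon had summits near both ends, and Boc had none within 50 kb. GAS1 is a membrane-anchored protein that binds the ligand and promotes signalling. Its peak, at 60177303 to 60177834 on chromosome 13, covered the whole promoter shown above, and the summit lay 76 bp upstream of the start. The fold was 4.06 (2.70 to 5.88) from 26 fragments, and 17.3% of all peaks had a lower one. The peak was in the active promoter class, with H3K4me3, H3K9ac and H3K27ac and without H3K4me1 or TBX3. Gas1 was the sole protein-coding gene within 50 kb of it, and the next summit lay 126 kb from the gene. A summit inside the promoter window, from 250 bp before to 50 bp after a start, was found at 4.23% of the 32585 RefSeq starts and at 1 of the 7 member starts in that table.

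CDON, a cell-surface protein of the immunoglobulin superfamily, acts beside GAS1 and BOC in ligand reception. Its gene, at 35421528 to 35507652 on chromosome 9, had 2 summits that lay 86572 bp apart. The one at the 5′ end (35421867 to 35422041) had 3.70-fold enrichment (2.35 to 5.57) from 21 fragments, the lowest of the 11 summits. It was an active promoter peak, 778 bp from a start in the authors' annotation and just inside the edge of the RefSeq body, while the start listed for Cdon in the RefSeq promoter table lay 30174 bp further on. The one beyond the 3′ end (35508258 to 35508785) had 7.34-fold enrichment (5.53 to 9.56) from 53 fragments, the most of the 11. It lay 822 bp from Cdon and 748 bp from the body of Gm1113. The distance to a start in the authors' annotation, 49996 bp, matched the RefSeq start of Ddx25. This summit carried H3K4me1, H3K9ac and H3K27ac and overlapped a TBX3 region. The counting intervals of the Cdon summits overlap slightly.

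BOC is a close relative of CDON. The summit nearest to Boc lay 57.7 kb from the gene, just outside the window, and Boc was also the protein-coding gene nearest to it. It lay at 44616516 to 44616845 on chromosome 16 with a fold of 4.20 (2.67 to 6.32). It was the closest summit left out by the 50 kb limit for any member, and the summit farthest out among those taken in was the 4.54-fold Gli1 summit at 40.5 kb.

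Ptch1 held 3 summits, and all of them lay inside the gene body. It encodes the receptor that restrains SMO until a ligand binds, and is a direct target of GLI proteins. At least 3 summits inside the body were found in 3.33% of all protein-coding genes, whose median body was 17.3 kb where that of Ptch1 was 65.1 kb. The 3 summits, in order along chromosome 13, had 4.49-fold (2.54 to 7.45), 3.84-fold (2.63 to 5.43) and 4.21-fold (2.75 to 6.18) enrichment, and their counting intervals overlap throughout. They rested on 13, 30 and 24 fragments, over backgrounds of 2.12, 7.06 and 4.94. The middle summit had the most fragments and also the highest background of the 3.

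The gene reads on the minus strand, with a RefSeq start at 63565735. The middle summit (63563236 to 63563519) lay 2342 bp downstream of that start and 1142 bp from the start the authors' annotation used, in the active promoter class. The upper one (63567851 to 63568087) lay 2225 bp upstream of the RefSeq start, 2440 bp by the authors' annotation, inside the body because the body extends to 63573460. It missed the authors' promoter class on this distance but carried the promoter mark H3K4me3 with H3K9ac and H3K27ac, and it overlapped a TBX3 region. The lower one (63553649 to 63553879), 11979 bp into the gene, carried H3K4me1 without H3K27ac and was classed as poised. TBX5 summits thus stood on both sides of the Ptch1 start, with none in the promoter window itself.

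The inhibitor gene Hhip and the transducer gene Smo had no summit in their windows. HHIP binds hedgehog ligands at the membrane and removes them from the receptor. The summit nearest to Hhip lay 254 kb away, in the gene Abce1 and in the promoter class, with 3.94-fold enrichment (2.66 to 5.64), and 80.8% of all protein-coding genes had a summit nearer. The summit nearest to Smo lay 99.0 kb away, also in the promoter class, inside Ahcyl2. It had 12.5-fold enrichment (9.25 to 16.5), more than any summit taken in but 1. Where no summit is listed, no peak passed the threshold of the pooled call, and weaker binding could not be detected at this depth.

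**Figure D3:**
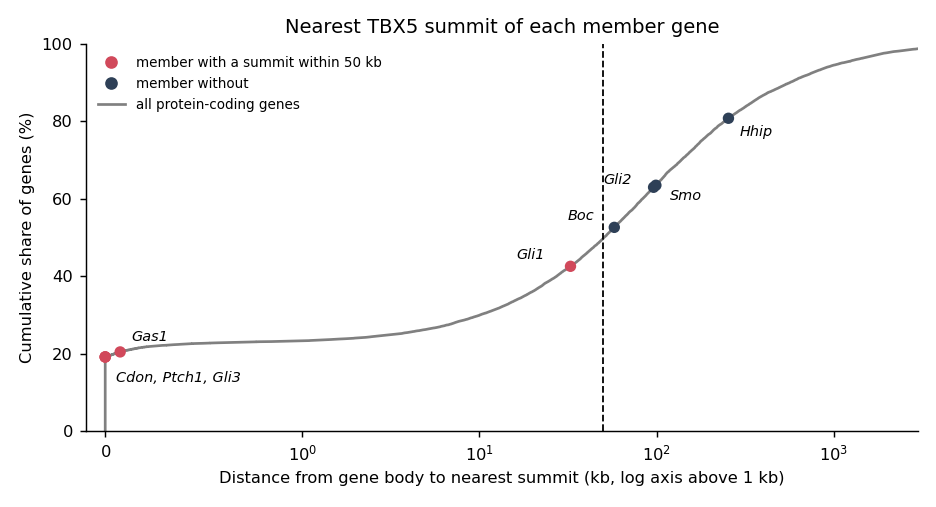
Distance in kb from each member gene body to its nearest TBX5 summit (log axis above 1 kb), placed on the cumulative curve of all 21631 protein-coding genes, with the 50 kb limit as a dashed line. Cdon, Ptch1 and Gli3 hold a summit in the body, as 19.2% of all genes do, and Hhip lies farthest out, at 254 kb.

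The GLI transcription factor genes took 5 of the 11 summits, and their closest distances ran from inside the body to 96.1 kb. Gli1, which encodes an activator that is itself a readout of the signal, had 3 summits in its window. Gli1 was the nearest protein-coding gene of none of them. They lay at 40.5, 39.3 and 32.7 kb below its body, which runs from 127329882 to 127341579 on chromosome 10, in a dense stretch where each of them fell into the windows of 7 protein-coding genes. The summit at 127289351 had 4.54-fold enrichment (3.03 to 6.58) and lay in the body of Mbd6, 580 bp upstream of a start in the authors' annotation, and the peak overlapped a RefSeq promoter of Mbd6. The summit at 127290598, 1247 bp further on, had 5.41-fold enrichment (3.82 to 7.47) and lay 195 bp upstream of the Ddit3 start, in the promoter printed above, at a position also inside the RefSeq body of Mbd6. The upper one, at 127297016 to 127297392, lay inside Mars1 and 6430 bp from the Ddit3 start, which matched the distance in the authors' annotation.

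This upper summit was the strongest of the 11, with 15.7-fold enrichment (11.7 to 20.7) from 48 fragments over a background of 2.12. It stood above 93.1% of all peaks and its counting interval overlapped that of no other member summit. It carried H3K4me1 and H3K27ac without H3K4me3, in the active non-promoter class, and it and the Ddit3 promoter summit overlapped TBX3 regions. Without the window of Gli1 the members had 8 summits and a highest fold of 7.34, at Cdon.

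GLI3 acts mainly as a repressor in the absence of signal, and GLI2 mainly as an activator in its presence. Gli3, at 15463723 to 15730026 on chromosome 13, had 2 summits, 77031 bp apart and of equal fold, 7.05 (4.49 to 10.6), each from 21 fragments over a background of 2.12. The equality follows from whole fragments over the same background. The one at 15664770 to 15665029 lay in the gene body, 201 kb from the RefSeq start, with H3K4me1 alone, and was classed as poised. The one at 15741821 to 15742062 lay 11.9 kb beyond the 3′ end, in the active class. It carried H3K27ac without H3K4me1, H3K4me3 or H3K9ac, and it overlapped a TBX3 region. The 5′ part of Gli3, from 50 kb upstream of the start to the summit in the body, had no summit. Gli2, a gene of 220 kb, had none within 96.1 kb, where a summit of 6.04-fold (3.49 to 9.86) lay nearer to Tfcp2l1 than to Gli2.

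Chromatin annotation of the 11 summits was then compared with that of all peaks. The marks are overlaps with histone regions from ENCODE and with TBX3 regions in the authors' deposited table, whose tissue and stage the sources used here do not give. H3K27ac, a mark of active promoters and enhancers, was present at 9 of the 11 summits, and at 73.5% of all peaks. The other 2, the lower summit of Ptch1 and the one in the body of Gli3, were poised, a class that held 14.2% of all peaks. The active class held the same 9, and 73.5% of all peaks. H3K4me3, a promoter mark, was present at 6 of 11 member summits, and at 31.8% of all peaks. H3K9ac, a mark of active promoters, was present at 7 of 11, and at 46.0% of all peaks. H3K4me1, a mark of enhancers, was present at 6 of 11, and at 72.3% of all peaks. Regions of TBX3, a T-box factor that acts mainly as a repressor in the conduction system, overlapped 5 of the 11 summits, and 27% of all peaks. These 5 lay at Cdon, Ptch1, Gli1 (2 summits) and Gli3, and without the window of Gli1 there were 3 of 8. No member summit overlapped H3K27me3 or H3K9me3, marks of repressed chromatin, which 1.63% and 0.241% of all peaks did. With 11 summits, these differences in share were not tested.

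**Figure D4:**
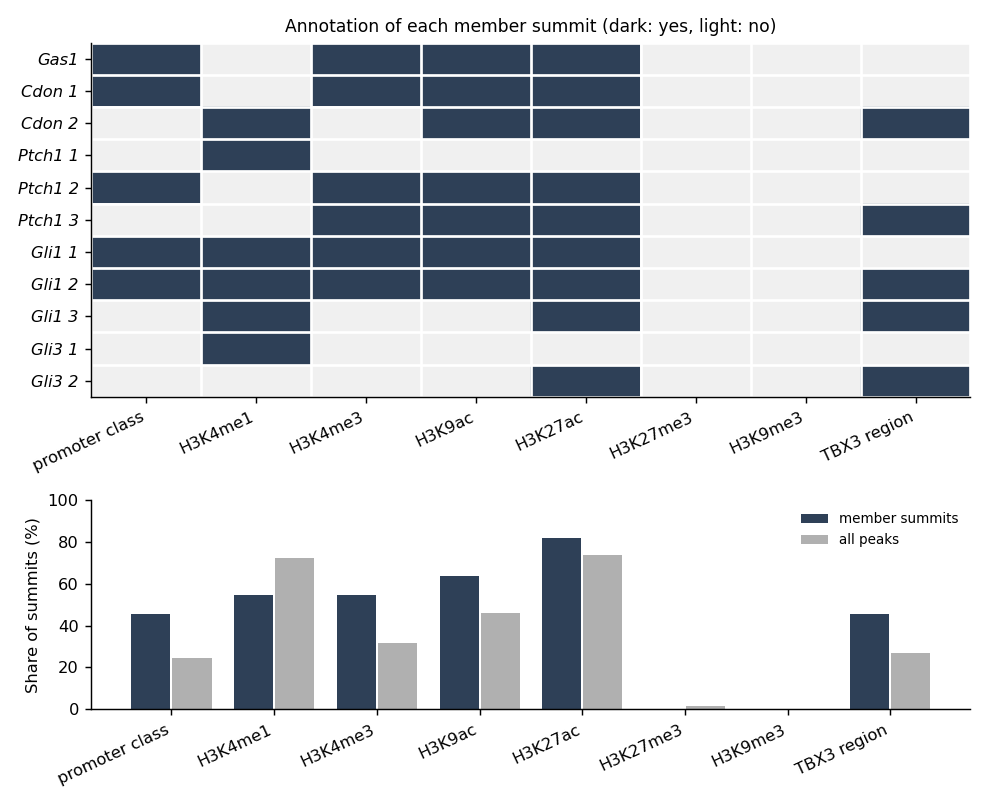
Annotation of each member summit in the authors' deposited table (dark for yes), and below it the share in per cent of the 11 member summits (dark bars) and of all 12436 peaks (grey bars) with each. All but 2 member summits carry H3K27ac, 5 overlap TBX3 regions, and none carries H3K27me3 or H3K9me3.

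Sequence motifs were searched in the promoters, from 250 bases before to 50 after each start, on both strands. The T-box motif AGGTGTGA, its parts GGTGTGA and GGTGTG (each contained in the longer one), the GLI motif TGGGTGGTC and the GATA motifs AGATAA and TGATAA were counted as exact matches. None of the 6 was found in any of the 7 member promoters in the table (Gas1, Cdon, Ptch1, Hhip, Smo, Gli2 and Gli3), that of Gas1 with its summit included. For Cdon the start in the table lay 30174 bp from the promoter-class summit at the 5′ end, where the letters were not searched. GGTGTG was found in 22.9% of the 1378 promoters that held a summit, against 19.0% of all 32585. GGTGTGA was found in 5.44% of those with a summit, against 3.98% of all, and AGGTGTGA in 1.96%, against 1.28%. The GLI motif TGGGTGGTC was found in 0.145% of promoters with a summit, against 0.255% of all. Of the GATA motifs AGATAA was found in 5.73% of promoters with a summit, against 11.2% of all, and TGATAA in 3.48%, against 9.01%. These differences in share were not tested. At Ddit3 the single match was AGATAA just after the start, beyond the bases printed. The upstream 250 bases of Gas1 had 58.8% G and C with 10 CpG pairs, and those of Ddit3 64.8% with 20. Promoters that held a summit had a median of 64.0% and 21 CpG pairs, against 52.4% and 6 for all promoters. No match says only that these letters are not in this window, and the letters at the other summits were not analysed here.

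Other genes of the pathway, 44 in all, were read under the same 50 kb rule. A summit was found for 30 of them (68.2%), against 49.8% of all protein-coding genes, from 67 distinct summits with a median fold of 5.24. The bodies of the 44 genes had a median of 37.1 kb, against 17.3 kb for all genes. Of those with a body of 20 to 100 kb 11 of 19 had a summit, close to the 55.1% of all such genes. Among those under 20 kb it was 11 of 16, and among those of 100 kb or more 8 of 9, both above the shares of all genes of that length. Foxf1 and Foxc2, both under 20 kb, shared their strongest summit and are not separate loci. As for the members, none of these shares was tested, and the list was chosen with earlier results of these data known.

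For the ligands and their release 6 of 9 genes had a summit. The strongest, and the strongest of the 44 genes, lay inside Scube1, which encodes a secreted relative of the SCUBE2 protein that helps release lipid-modified ligand. It had 38.9-fold enrichment (32.8 to 45.9) from 139 fragments at 83639209 to 83639742 on chromosome 15, with H3K27ac. Disp1, the transporter that releases ligand from producing cells, reached 12.6-fold (9.45 to 16.4), and Hhat, the acyltransferase that attaches palmitate to the ligand, 11.2-fold (7.87 to 15.6), both inside the gene with H3K27ac. The ligand genes Shh and Ihh had no summit within 50 kb (nearest at 76.2 and 191 kb), nor had Disp2. Dhh had 2, the nearest 9.43 kb outside the gene. The stronger had a fold of 4.58 and lay 36.0 kb away, in the promoter class.

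For reception, cilium and co-receptors 7 of 11 genes had a summit. Gpc3, a glypican that binds ligand, had 4, with a highest fold of 8.86 (5.64 to 13.3). Evc and Evc2, neighbours whose products bind SMO at the base of the cilium, shared 1 poised summit of 8.46-fold (5.32 to 12.8) inside Evc2. Ift88, Ift172, Arl13b and Tulp3 had none. Among intracellular regulators of GLI 8 of 12 had a summit. Sufu, which holds GLI proteins in the cytoplasm, had 7, with a strongest fold of 9.93 (7.28 to 13.3) inside the gene, overlapping H3K27ac and TBX3. Ulk3 (8.36-fold, 5.77 to 11.8, inside the neighbouring gene Cplx3) and Csnk1a1 (8.06-fold, 5.01 to 12.4, 19.6 kb outside the gene) encode kinases, and Prkacb, Gsk3b, Cul3 and Arrb2 had none.

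Of reported targets and effectors of hedgehog signalling 9 of 12 had a summit. Foxf1 and Foxc2, neighbouring forkhead genes on chromosome 8, shared their strongest, of 28.1-fold (22.6 to 34.6) from 88 fragments at 121103953 to 121104335. It lay inside the gene Mthfsd, 16.0 kb from Foxf1 and 12.1 kb from Foxc2, and was poised, without H3K27ac. Snai1, a transcription factor gene of epithelial to mesenchymal transition, had a 13.5-fold summit (11.1 to 16.1) 10.3 kb away. Osr1, Wnt2 and Ccnd2 had none, with the nearest at 337, 109 and 160 kb.

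**Figure D5:**
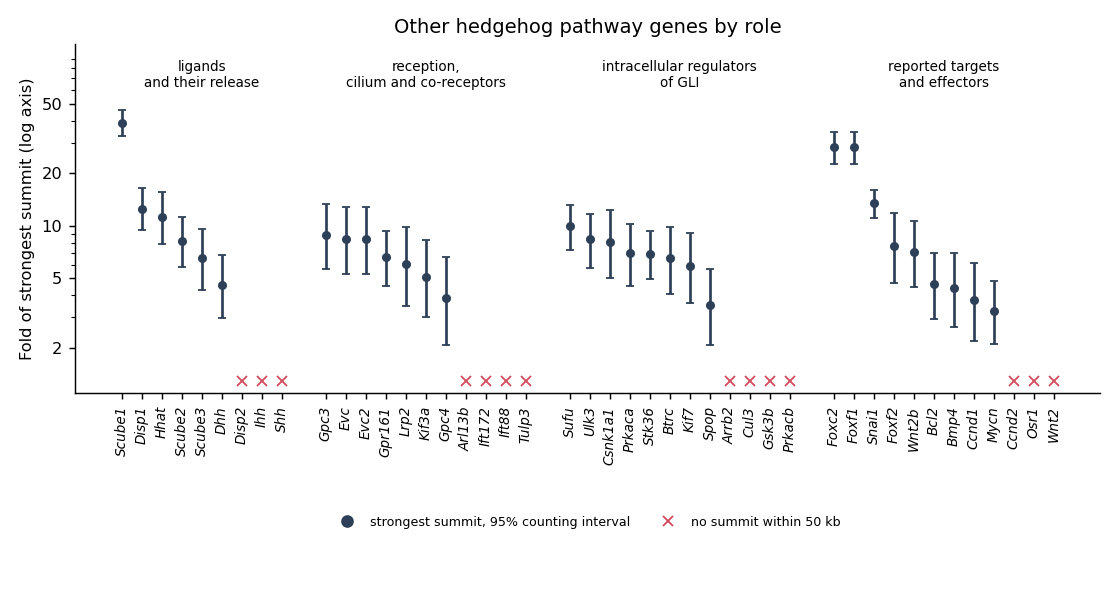
Fold enrichment (log axis) of the strongest TBX5 summit within 50 kb of each of 44 other hedgehog pathway genes, grouped by role, with 95% counting intervals, and a cross where there is none. Scube1 stands highest at 38.9-fold, Foxc2 and Foxf1 show the same summit of 28.1-fold, and 14 genes have a cross.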

How the data were processed

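TBX5 ChIP-seq of E14.5 hearts (2 ChIP replicates and 1 input) was represented by 1 pooled peak list and its annotation table. The submitters' processing notes name mm10, Bowtie2, SAMtools, MACS2 and ChIPseeker, without versions or settings. The authors' fold enrichment is a ratio over the local background, and the deposited −log10 p and −log10 q are from the same call. Both describe a peak within this list. The sources used here give no read depth per sample. Libraries held fragments of 200 to 650 bp, read as 50-base single ends, per the labels' protocols.

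Whole-number fragment counts at summits were solved from the deposited fold, as (fragments + 1)/(background + 1), and −log10 p, and matched within 0.0005 for all 12436 peaks. The solver was tested on 500 simulated peaks, of which 100% were recovered. Gene bodies, starts and promoter sequences came from RefSeq GRCm38.p6, the assembly named mm10. All 9 members and 44 other genes matched by symbol (1 more gene of the list is not reported here), and 7 members had a promoter entry. A mark with 2 region files counted where either file marked the peak. Motif counts at each summit, planned for an mm10 genome, were replaced by promoter counts.

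The members, lists, length classes and tests were chosen with earlier results of these data known. All members were named with each summit, and of the other genes the 3 with the strongest summit in each role, with those that had none. Windows, thresholds and gene assignment were varied. Tools were scipy 1.17.1, pandas 2.3.3, numpy 2.4.6 and matplotlib 3.10.9 under Python 3.11.15.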

Additional observations from a re-analysis of the deposited data

How the results depend on the processing

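With a 10 kb window 4 members had a summit, against 5 at 50 kb, with 7 summits, 5 with H3K27ac and 2 with TBX3. The same 4 numbers were found when a summit within 50 kb was counted for its nearest gene alone. No share of all genes is given here for the nearest-gene rule, and no share of marks over all peaks for any of these settings. With the gene body alone 3 members had 5 summits, 3 with H3K27ac and 1 with TBX3, and 17 of the 44 other genes had one. With −log10 q of at least 10, 3 members had 5 summits of median fold 7.05, 4 of them with H3K27ac, and 19 other genes had one. This limit favours peaks of high fold, so the higher median follows from it by construction. It cannot be set against the median of all peaks, which was taken without the limit. Fewer peaks or smaller windows give fewer counts by construction, and the share of all protein-coding genes with a summit was 29.9% at 10 kb, 19.2% for the body alone and 26.0% with the q limit, against 49.8%. Without the Gli1 window, an alternative chosen after seeing the data, 3 summits overlapped TBX3 regions, against 5. Of 36 values recomputed 19 stayed within 1.5 times the count, or within the counting interval of the median fold, among them every value with peak intervals in place of summits and H3K27ac with both region files.

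Replicates could not be left out, since peaks were called on pooled samples. No paired analysis was possible because the deposited values carry no replicate. The planned motif counts in a shorter window at each summit were not run, since no genome was used. Depth per sample is unknown, and fold values rest on 13 to 53 fragments at the member summits.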
